A study of Mus musculus with 4 samples.

Results

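Alcohol dehydrogenases and aldehyde dehydrogenases were examined as a family of liver enzymes in 4 F1 mice. The members are the 10 genes Adh1, Adh4, Adh5, Adh7, Aldh2, Aldh1a1, Aldh1a7, Aldh3a2, Aldh9a1 and Aldh7a1, taken by their gene names. All 10 were among the 8797 genes listed for each mouse, and 9 of them were among the 3632 genes with a B6-allele frequency. The mice were female and 5 months old, and the labels name no treatment. The cross labelled MB (2 mice) had its mothers from MSM and its fathers from B6. The reciprocal cross, labelled BM (2 mice), had B6 as mothers and MSM as fathers. B6 (C57BL/6J) and MSM (MSM/Ms) are inbred strains of different subspecies, so every mouse carried 1 allele of each strain, and the reciprocal crosses differed in which parent gave it. Mice of the parental strains were not analysed here, and 4 mice of a single sex, age and tissue limit how far the values extend. Polyadenylated RNA of the liver was sequenced, and 2 values were deposited per gene and mouse. FPKM is the number of sequenced fragments scaled to transcript length and library size. The B6-allele frequency divides the reads assigned to B6 by those assigned to either strain, so that 0.5 means equal use of the alleles. Values of a pair of mice are given with replicate 1 first.

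Alcohol dehydrogenases oxidize alcohols to aldehydes, and aldehyde dehydrogenases oxidize aldehydes to acids. The liver uses a pair of such steps to turn ethanol into acetaldehyde and then acetate, and a parallel pair to turn retinol into retinaldehyde and retinoic acid. Other members handle formaldehyde, fatty aldehydes, and the aldehydes formed in carnitine synthesis and lysine breakdown.

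The summed FPKM of the listed genes ranged from 529024 to 671875 among the mice, and the 10 members made up 0.770% to 0.826% of it. Read counts are not among the values used here. The depth behind an FPKM or a frequency is therefore unknown, and the spread among mice is the error given throughout. Of 10 hepatocyte markers, 9 were listed (Alb was not), and they summed to 29145 to 42280 FPKM. Kupffer cell markers (8 of 10 listed) summed to 182 to 265 FPKM, endothelial markers (10 of 10) to 218 to 256, stellate cell markers (5 of 10) to 215 to 248 and cholangiocyte markers (2 of 8) to 13.6 to 19.4. Of the markers of exocrine pancreas and stomach, 1 of 10 was listed, at 10.6 to 13.5 FPKM. In bulk tissue, fewer cells of a type and less RNA per cell cannot be told apart.

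A pair of neighbouring relatives on chromosome 19 differed widely in allelic use. Aldh1a1 encodes the cytosolic enzyme that oxidizes retinaldehyde to retinoic acid, and Aldh1a7 encodes a close relative of it. In mm10 coordinates of GENCODE M21, Aldh1a1 (ENSMUSG00000053279.8) spans chr19:20492715-20643465 on the plus strand and Aldh1a7 (ENSMUSG00000024747.3) spans chr19:20692953-20727562 on the minus strand. The genes lie 49.5 kb apart, and their 3′ ends face each other. Their coding sequences have equal length, 1506 bases, and 91.6% of these bases are the same. The stretches upstream of their start sites are also alike. The 120 bases ahead of each start are printed here because the genes differ so widely in their allelic use. They follow GRCm38.p6, the assembly called mm10, each on the strand of its gene. The longest run that is identical in both, 65 bases, is in capitals. Each stretch ends before the most upstream start that RefSeq or GENCODE M21 gives there. The Aldh1a1 stretch is chr19:20601841-20601960, ahead of a start inside the longer gene model, and the Aldh1a7 stretch is chr19:20727563-20727682.
Aldh1a1: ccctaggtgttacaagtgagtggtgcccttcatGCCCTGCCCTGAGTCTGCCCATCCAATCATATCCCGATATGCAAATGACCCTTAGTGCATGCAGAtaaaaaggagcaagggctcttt
Aldh1a7: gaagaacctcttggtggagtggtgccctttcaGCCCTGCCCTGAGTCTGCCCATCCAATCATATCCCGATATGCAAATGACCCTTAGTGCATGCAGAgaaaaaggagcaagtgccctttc
Over 112 aligned bases the stretches share 92.9% of their bases. The run holds CCAAT and ATGCAAAT. On either strand, CCAAT occurs in 33.8% and ATGCAAAT in 1.60% of the 32851 RefSeq windows of 250 bases ahead of a gene start. These letters describe the reference strain, and the MSM sequence was not used here.

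Aldh1a7 was used mainly from the MSM allele. Its B6-allele frequency was 0.234 and 0.227 in the MB mice and 0.213 and 0.199 in the BM mice, a mean of 0.218 ± 0.0157 (SD, n = 4). All 4 mice lay far below 0.5, and only 1 of them was below 0.2. The log2 odds of the B6 allele were -1.84 (SE 0.05, limma adjusted p = 0.00152), which is 3.59 MSM reads for each B6 read (95% interval 3.25 to 3.96). Only 3.63% of the genes with a frequency had a mean farther from 0.5. Aldh1a1 was close to equal use. Its frequency was 0.534 and 0.547 in the MB mice and 0.548 and 0.529 in the BM mice, above 0.5 in every mouse. The log2 odds were 0.23 (SE 0.05, limma adjusted p = 0.0421), and with any single mouse left out the adjusted p was 0.118 to 0.173. The median over all genes with a frequency was also above 0, at 0.06, and with each mouse shifted to a median of 0 the log2 odds of Aldh1a1 were 0.17 (limma adjusted p = 0.0776).

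Within each mouse, the log2 odds of Aldh1a1 exceeded those of Aldh1a7 by 1.91, 2.04, 2.17 and 2.18, a mean of 2.07 ± 0.13 (SD, n = 4). The order was the same in 4 of 4 mice, and the exact sign-flip test gave p = 0.125, the smallest value that 4 mice allow (two-sided). 5 such pairs were compared, each with this p, so the adjusted value is also 0.125. Multiplying the FPKM by the frequency splits the expression of a gene into a B6 part and an MSM part. For Aldh1a1 these parts were 286 ± 44.6 FPKM from B6 and 245 ± 42.4 from MSM. Aldh1a7 gave 66.5 ± 14.6 FPKM from B6 and 236 ± 33.8 from MSM (SD, n = 4). Among MSM-derived transcripts the ratio of Aldh1a1 to Aldh1a7 was therefore 0.829 to 1.15 among the mice, a near equal level of both genes. Among B6-derived transcripts it was 3.72 to 5.22. The split takes the frequency of the reads that cover a strain difference as that of the whole gene.

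**Figure D1:**
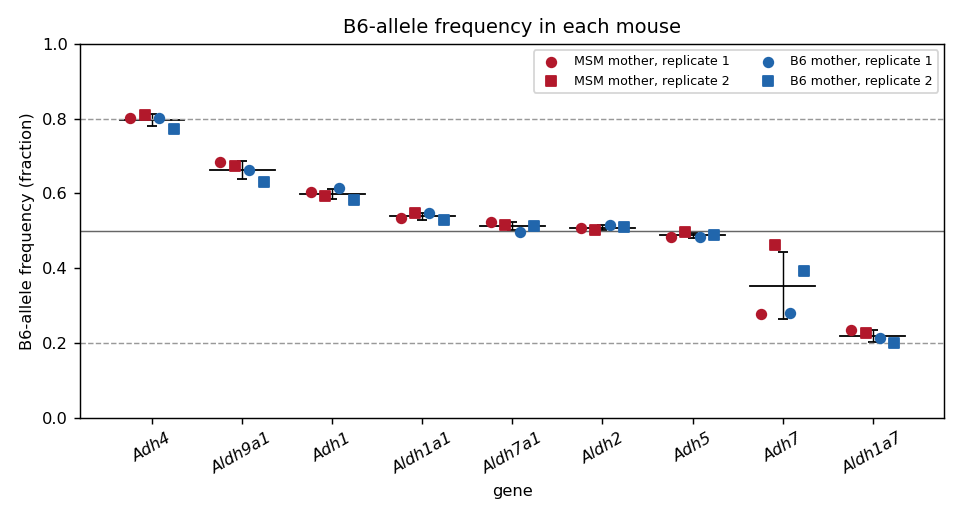
B6-allele frequency (fraction) of the 9 members that have one, in order of their mean. Points are single mice, red for MB mice (MSM mother) and blue for BM mice (B6 mother), horizontal lines are means with SD bars over 4 mice, the solid line marks 0.5 and the dashed lines mark 0.8 and 0.2. Adh4 sits at 0.772 to 0.810 and Aldh1a7 at 0.199 to 0.234, while Aldh2 and Adh5 lie near 0.5.

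Because these relatives are so alike, the transcripts were searched for stretches that could be read as another gene. Reads were sequenced at 150 bases and then trimmed by the authors, so aligned reads could be shorter. No 150-base word of the Aldh1a1 or Aldh1a7 transcript occurred in any other gene. The longest run common to both coding sequences was 100 bases, and a trimmed read that lies within it matches both genes. It is printed here, since it is where a read is least able to tell the genes apart. In Aldh1a1 it lies within chr19:20629063-20630671 and in Aldh1a7 within chr19:20708329-20709491, crossing an intron in both.
Aldh1a1 and Aldh1a7: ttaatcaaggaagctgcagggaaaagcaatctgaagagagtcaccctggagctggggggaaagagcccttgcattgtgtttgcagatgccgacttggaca
Aligned without gaps, 150-base windows of the coding sequences differed at 2 to 27 positions, with a median of 11. Of the other members, Adh1, Adh4, Adh5, Adh7, Aldh2, Aldh3a2 and Aldh9a1 also shared no 150-base word with another gene. Aldh7a1 shared 47 of its 3982 words (1.18%) with Phax, which overlaps it on the opposite strand. Coding identity was compared only within the alcohol and within the aldehyde dehydrogenases. Among the other pairs of members compared, it was at most 69.2%, for Adh7 and Adh1. What part misplaced reads have in any frequency was not tested.

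The alcohol dehydrogenases form a cluster on chromosome 3, where all 4 members lie on the plus strand. In mm10 they are Adh7 (ENSMUSG00000055301.8, chr3:138217760-138233382), Adh1 (ENSMUSG00000074207.10, chr3:138260991-138290698), Adh4 (ENSMUSG00000037797.14, chr3:138415466-138430892) and Adh5 (ENSMUSG00000028138.8, chr3:138443093-138455499). They were used very differently by allele. Adh4, whose enzyme oxidizes retinol and larger alcohols, was the most B6-biased of the family. Its frequency was 0.802 and 0.810 in the MB mice and 0.801 and 0.772 in the BM mice. 3 of the 4 mice were above 0.8, and the mean of 0.796 ± 0.0166 (SD, n = 4) fell just short of it. The log2 odds were 1.97 (SE 0.06, limma adjusted p = 0.00219), or 3.91 B6 reads for each MSM read (95% interval 3.42 to 4.47). Only 3.28% of the genes with a frequency lay farther from 0.5.

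Adh1 encodes the main ethanol-oxidizing enzyme of the liver. Its frequency was 0.605 and 0.592 in the MB mice and 0.615 and 0.582 in the BM mice, above 0.5 in all 4 mice. The log2 odds were 0.58 (SE 0.06, limma adjusted p = 0.0107), a ratio of 1.49 (95% interval 1.32 to 1.68), and with any single mouse left out the adjusted p was 0.0578 to 0.0686. Adh5 encodes the glutathione-dependent formaldehyde dehydrogenase, an enzyme present in all tissues. It was close to equal, at 0.484 and 0.497 in the MB mice and 0.483 and 0.488 in the BM mice. Every mouse was a little below 0.5, and the log2 odds of -0.07 (95% interval -0.20 to 0.06) did not pass the test (limma adjusted p = 0.292). Adh7, best known from the stomach lining, had the lowest FPKM of the family and the widest spread. Its frequency was 0.278 and 0.461 in the MB mice and 0.281 and 0.393 in the BM mice. All 4 values were under 0.5, but the log2 odds of -0.90 (SE 0.27) did not pass the test (limma adjusted p = 0.0830). The SD of 0.0896 compares with a median SD of 0.0272 over all genes with a frequency.

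Adh4 and Adh5 are 12.2 kb apart, yet the log2 odds of Adh4 exceeded those of Adh5 by 1.83 to 2.11 among the 4 mice, a mean of 2.04 ± 0.14 (SD, exact sign-flip p = 0.125, n = 4). Adh4 exceeded Adh1 by 1.39 ± 0.12, and Adh1 exceeded Adh5 by 0.65 ± 0.11, each in 4 of 4 mice. The ratio of Adh5 to Adh4 was 2.69 to 3.43 among B6-derived transcripts and 11.4 to 14.8 among MSM-derived ones. Other genes of the region also differed in frequency. Adh6-ps1, a pseudogene of the family between Adh1 and Adh4 and 20.5 kb from Adh4, had a mean frequency of 0.682 ± 0.0435 (limma adjusted p = 0.00890). The non-member Metap1, 3.46 kb beyond Adh5, had 0.523 ± 0.0450, Mttp had 0.520 ± 0.00402, 0610031O16Rik, which overlaps Adh7 on the opposite strand, had 0.542 ± 0.0488, and Eif4e had 0.419 ± 0.0327 (SD, n = 4). Of these, Eif4e passed the test (limma adjusted p = 0.0395). Adh1, Adh6-ps1 and Adh4 lie next to each other among these genes and had the 3 highest means of the region.

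**Figure D2:**
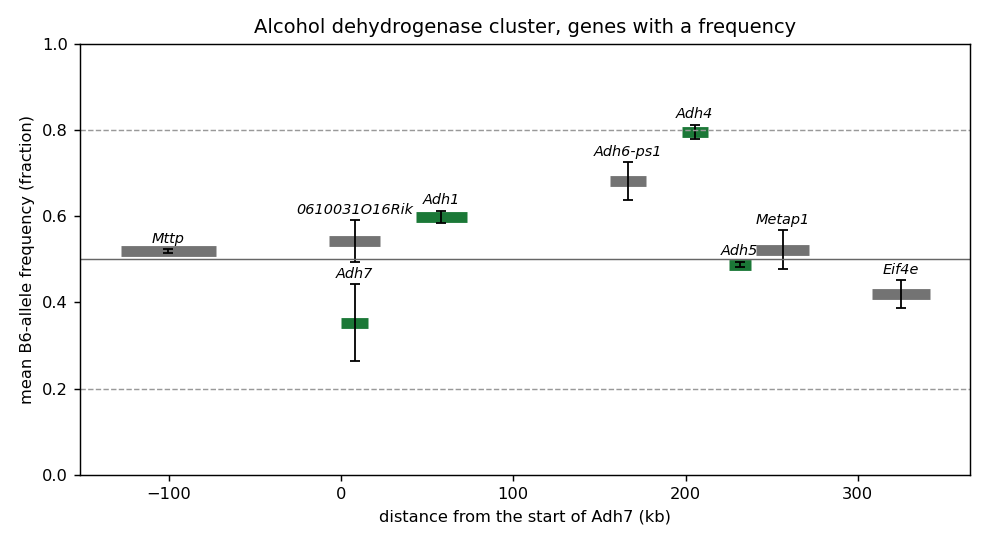
Mean B6-allele frequency (fraction, SD bars over 4 mice) against the distance in kb from the start of Adh7, for the genes of the cluster that have a frequency. Bars span each gene, green for members and grey for other genes. Adh4 at 0.796 and Adh5 at 0.488 are direct neighbours.

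The 120 bases ahead of a start of Adh4 and of Adh5 (GRCm38.p6, plus strand) are printed to show how their content of CG pairs differs. Each CG pair is in capitals. As above, the stretches end before the most upstream start that RefSeq or GENCODE gives there. They are chr3:138415346-138415465 for Adh4 and chr3:138442973-138443092 for Adh5.
Adh4: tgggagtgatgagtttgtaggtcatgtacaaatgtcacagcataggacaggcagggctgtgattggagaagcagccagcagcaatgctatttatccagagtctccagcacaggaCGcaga
Adh5: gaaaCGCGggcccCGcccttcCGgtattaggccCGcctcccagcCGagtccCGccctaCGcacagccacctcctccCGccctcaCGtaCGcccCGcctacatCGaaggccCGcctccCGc
The Adh4 stretch holds 1 CG pair and the Adh5 stretch 15. Over 250 bases the counts were 1 for Adh4 and 21 for the same Adh5 start, where the median of all windows was 6. RefSeq gives a further Adh5 start upstream, and its window (chr3:138436950-138437199) held 2 CG pairs at 45.2% G and C, close to the 41.6% of Adh4. Adh7 and the Aldh1a1 and Aldh1a7 starts shown above also had 1 CG pair in 250 bases, Adh1 had 5, Aldh9a1 had 8 and Aldh3a2 had 18. RefSeq windows of 8 of the 10 members were used here, and none of Aldh2 or Aldh7a1 was among them.

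Among the remaining aldehyde dehydrogenases, Aldh9a1 was B6-biased. It encodes the enzyme that oxidizes trimethylaminobutyraldehyde in carnitine synthesis, and it lies on chromosome 1 (ENSMUSG00000026687.14, chr1:167349991-167368532, plus strand). The frequency was 0.685 and 0.673 in the MB mice and 0.664 and 0.630 in the BM mice. All 4 mice were above 0.6, a mean of 0.663 ± 0.0235 (SD, n = 4). The log2 odds were 0.98 (SE 0.06, limma adjusted p = 0.00513), a ratio of 1.97 (95% interval 1.74 to 2.23). Mgst3, a glutathione transferase gene 3.43 kb away on the other strand, leaned the other way, with 0.373 ± 0.0155 (SD, n = 4) and log2 odds of -0.75 (SE 0.05, limma adjusted p = 0.00523). Tmco1, 16.01 kb on the other side, had values of 0.704 to 1 and a mean of 0.829 (limma adjusted p = 0.0904), and Uck2, 64.7 kb away on that side, had 0.552 ± 0.0499 (limma adjusted p = 0.192).

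Aldh2, the mitochondrial enzyme that clears acetaldehyde after ethanol, was close to equal use. It lies at chr5:121566027-121593824 on the minus strand (ENSMUSG00000029455.14). The frequency was 0.507 and 0.501 in the MB mice and 0.516 and 0.511 in the BM mice, the narrowest spread of the family (SD 0.00625). The log2 odds of 0.05 had a 95% interval of -0.08 to 0.18 (limma adjusted p = 0.401), so a B6 excess above 1.13 or an MSM excess above 1.05 in reads lay outside the interval. Genes around it were less even. Acad10, 27.2 kb away, had 0.259 ± 0.0255 (limma adjusted p = 0.00481), whereas Acad12, 2.95 kb away, had 0.487 ± 0.0331 and did not pass the test. Of the other 6 genes with a frequency within 200 kb, Brap, Atxn2 and Trafd1 were called toward B6, with means of 0.555, 0.593 and 0.610, and Naa25, Erp29 and Mapkapk5 had means of 0.455, 0.511 and 0.534.

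Aldh7a1, which oxidizes an aldehyde formed in lysine breakdown, was also near 0.5. It lies at chr18:56509687-56572951 on the minus strand (ENSMUSG00000053644.13). The frequency was 0.523 and 0.516 in the MB mice and 0.497 and 0.513 in the BM mice. The values fell on both sides of 0.5, and the log2 odds of 0.07 (95% interval -0.06 to 0.21) did not pass the test (limma adjusted p = 0.294). The overlapping gene Phax had 0.455 ± 0.0414, Gramd3 had 0.499 ± 0.0135 and Lmnb1 had 0.542 ± 0.0143, of which Lmnb1 passed the test (limma adjusted p = 0.0384). Aldh3a2, the fatty aldehyde dehydrogenase (ENSMUSG00000010025.19, chr11:61223417-61267464, minus strand), had no frequency in any mouse. Nearly all genes below 100 Mb on chromosomes 1 to 15 and X lacked one, as did those below 10 Mb on chromosomes 16 to 19: 92 of 4668 such genes had a frequency (1.97%), against 3383 of 3766 beyond these coordinates (89.8%).

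In all, 5 of the 9 members differed from equal use at a limma adjusted p under 0.05, against 36.2% of all genes with a frequency. 4 were toward B6, where the share of all genes was 22.6%, and 1 was toward MSM, where it was 13.6%. The median log2 odds of the 9 members were 0.07, beside 0.06 over all genes. No member had a mean at or past 0.8 or 0.2, the thresholds of the study, against 3.19% of all genes. The study itself reports more genes past these thresholds than the 116 counted here, and the reason was not examined. By mean frequency the members ranked Adh4, Aldh9a1, Adh1, Aldh1a1, Aldh7a1, Aldh2, Adh5, Adh7 and Aldh1a7, and the ranges of neighbours in this order overlapped only for Aldh7a1 and Aldh2. Adh4, Aldh9a1 and Aldh1a7 passed the test in all 9 alternatives tried, and Adh1 and Aldh1a1 did not. With a mouse left out, Aldh9a1 passed only narrowly (log2 odds 0.925 to 1.031) and Adh1 fell narrowly short (0.5275 to 0.625).

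The reciprocal crosses ask whether the parent that gave an allele changed its use. No member passed the test of a difference between the crosses, against 3 of 3632 genes (0.0826%) at a limma adjusted p under 0.05. Across the genes tested 190 had an unadjusted p under 0.05, and among the members the lowest unadjusted p was 0.105, for Aldh1a7. Its frequency was higher in both MB mice (means 0.231 and 0.206), a difference of 0.21 in log2 odds (95% interval -0.08 to 0.50, limma adjusted p = 0.873). Aldh9a1 showed a difference of 0.20 (-0.16 to 0.57) and Adh4 one of 0.17 (-0.22 to 0.56). For Adh1 the difference was 0.00 (-0.35 to 0.34) and for Aldh1a1 0.01 (-0.28 to 0.30). The crosses did not overlap in 5 of the 9 members, where 34.3% of all genes did not overlap. Each of these intervals rests on 2 mice per cross and includes 0.

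**Figure D3:**
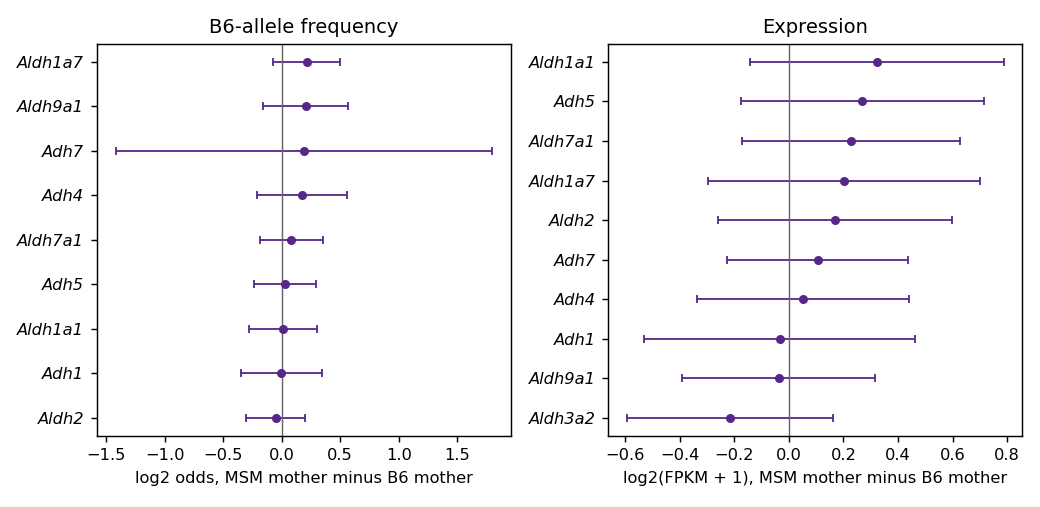
Difference between the crosses (MB minus BM) with limma 95% intervals, on the left for the log2 odds of the B6-allele frequency of 9 members and on the right for log2(FPKM + 1) of 10 members. Every interval includes 0, and that of Adh7 on the left is the widest, from -1.42 to 1.80.

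The members covered a wide range of expression. FPKM is scaled by transcript length, so levels may be set side by side within a mouse. Adh1 had 1993 and 1651 FPKM in the MB mice and 1768 and 1950.5 in the BM mice. Its mean of 1841 ± 160 (SD, n = 4) was the 35th highest of all 8797 genes. Aldh2 followed with 1217 and 1150.1 against 1056 and 1049 FPKM, rank 64. The 2 highest members thus stand at the first and the second step of ethanol oxidation. Next came the retinaldehyde enzyme Aldh1a1 and its relative Aldh1a7. Aldh1a1 had 645 and 537 FPKM in the MB mice and 436 and 507 in the BM mice, and Aldh1a7 had 369 and 280.2 against 302 and 258.

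Adh5 (333 and 269 against 234 and 263 FPKM) and Aldh7a1 (288 and 248.6 against 235 and 223) lay close to Aldh1a7. Aldh3a2 had 149 and 134 FPKM in the MB mice and 156 and 172 in the BM mice. Aldh9a1 had 116 and 121 against 128 and 116. Adh4 and Adh7 were lowest. Adh4 had 60.8 and 48.2 FPKM in the MB mice and 52.5 and 51.9 in the BM mice, and Adh7 had 3.30 and 3.07 against 3.15 and 2.64. Each neighbour in this order held in 4 of 4 mice, with ranges that did not overlap, except Aldh1a7 and Adh5 and then Adh5 and Aldh7a1, where it held in 3 of 4 mice. The step from Adh4 to Adh7 was 17.5-fold.

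**Figure D4:**
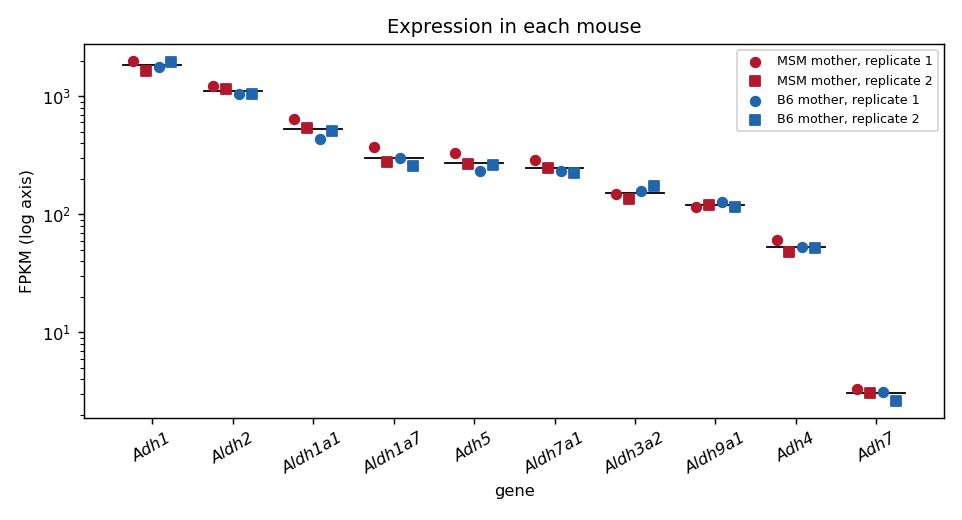
FPKM (log axis) of the 10 members in order of their mean. Points are single mice, red for MB mice (MSM mother) and blue for BM mice (B6 mother), and horizontal lines are means over 4 mice. Adh1 and Aldh2 lie highest, at 1049 FPKM or more in every mouse and Adh7 at 2.64 to 3.30.

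No member passed the test of expression between the crosses, against 4 of 8797 genes (0.0455%) at a limma adjusted p under 0.05. These 4, Cyp2e1, Mup9, Mir1957b and Snord104, were listed at 0 in both MB mice, and without genes listed at 0 in a mouse there was none. At an unadjusted p under 0.05 there were 780 genes. As deposited, Aldh1a1 had the largest member difference, with log2(FPKM + 1) higher by 0.32 in the MB mice (95% interval -0.14 to 0.79, limma adjusted p = 0.625). After scaling every mouse to the same sum it was 0.19, and that of Aldh3a2, at -0.34, was larger. Scaling each mouse by its median ratio to the geometric mean of all mice gave 0.30 for Aldh1a1 and -0.24 for Aldh3a2. Adh5 was higher by 0.27 (-0.18 to 0.72), and Aldh3a2 differed by -0.22 (-0.59 to 0.16). Adh1 differed by -0.03 (-0.53 to 0.46), so the interval runs from 0.692-fold to 1.38-fold. The crosses did not overlap in 5 of the 10 members, where 42.4% of all genes did not overlap. As deposited, 8 of the 10 members were highest in MB replicate 1. That mouse also had the highest summed FPKM, of which a single entry, Mir3470a, listed at 0 in the other mice, made up 47025. After scaling every mouse to the same sum, none of the 10 was highest in it. In the scaling by median ratios, over genes above 0 in every mouse, its factor was only 1.03, against 0.988 to 0.998 in the others. Which members were highest in it after that scaling was not examined.

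**Figure D5:**
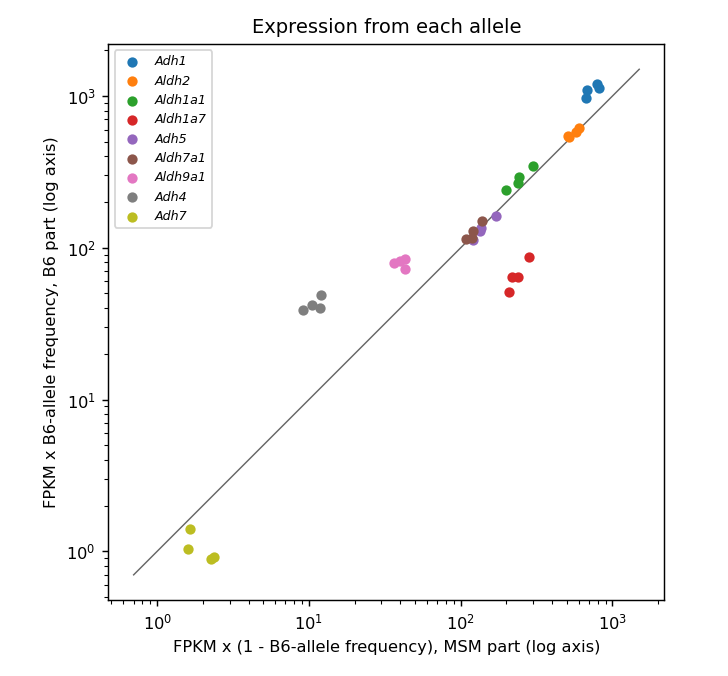
B6 part (FPKM times B6-allele frequency) against MSM part (FPKM times 1 minus that frequency) for 9 members, 1 point per mouse, both on log axes in FPKM, with a line of equality. Adh4 (42.5 from B6 and 10.9 from MSM on average) and Aldh9a1 (79.6 and 40.4) lie above the line and Aldh1a7 (66.5 and 236) below it.

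The allele parts place the biases on the scale of expression. Adh1 had 1101 ± 95.9 FPKM from B6 and 739 ± 72.4 from MSM, the largest difference in FPKM of the family. Adh4 had 42.5 ± 4.37 from B6 and 10.9 ± 1.33 from MSM. For Aldh2 the parts were 569 ± 36.7 and 549.6 ± 44.3, and for Adh5 134 ± 20.0 and 141 ± 21.7 (SD, n = 4). The spread of these parts among mice includes that of the FPKM.

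Genes that work beside the members were taken from lists for each pathway. In ethanol and acetate metabolism, 4 of 6 genes had a frequency, 1 was called toward B6 and 1 toward MSM. Cat, the catalase, had 0.548 ± 0.0201 (limma adjusted p = 0.0427) and Acss3, a mitochondrial enzyme that activates short-chain acids to their CoA forms, had 0.299 ± 0.0213 (limma adjusted p = 0.00414). Cyp2e1, the cytochrome P450 that oxidizes ethanol, was listed at 0 FPKM in both MB mice and at 4876 and 6541 in the BM mice, while its frequency was 0.516 and 0.546 against 0.523 and 0.539. A frequency needs reads, so the 0 is given only as listed and no fold is drawn from it.

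Of 28 genes of retinoid metabolism, 21 were listed, 9 had a frequency, 3 were called toward B6 and 1 toward MSM. Rdh16, a retinol dehydrogenase, was almost entirely B6-derived, at 0.984 to 0.991 among the mice (limma adjusted p = 0.000623). It is the only gene of these pathway lists with a mean above 0.8. Rdh7, of the same enzyme family, had 0.577 ± 0.00527 (limma adjusted p = 0.00932). Ttr, a carrier of the retinol-binding protein and the retinoid gene with the highest mean FPKM (3580.1), had 0.569 ± 0.0134 (limma adjusted p = 0.0183). Dhrs3, which reduces retinaldehyde to retinol, leaned toward MSM with 0.446 ± 0.0183 (limma adjusted p = 0.0352), and Rxrg had the lowest mean of the list, 0.439. Rdh genes are close relatives of each other, and sharing of their reads was not tested.

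In aldehyde and formaldehyde clearance, 10 of 12 genes were listed, and both genes with a frequency were called toward B6. Cbr1, a carbonyl reductase, had 0.731 ± 0.0330 (limma adjusted p = 0.00481), and Gclm, a subunit of the enzyme that makes the precursor of glutathione, had 0.617 ± 0.0110 (limma adjusted p = 0.00656). The highest FPKM of that list was that of Akr1c6 (1001). Of 18 other alcohol and aldehyde dehydrogenases, 8 were listed and 2 had a frequency, neither called. Aldh4a1, of proline breakdown, had the higher mean, 0.523. Aldh1l1, of folate metabolism, had the lower, 0.446 (0.35 to 0.5 among the mice), and also the highest FPKM, 846.

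In lysine catabolism, all 7 genes were listed and 3 had a frequency. Crym (0.186 ± 0.0589, limma adjusted p = 0.0164), which reduces intermediates of the pathway, was called toward MSM and was below 0.2 on average, at only 2.56 to 3.48 FPKM. Aass, which starts the pathway, had the highest mean, 0.533, with values from 0 to 1 among the mice. Gcdh had the highest FPKM, 395.0, and a frequency of 0.5 and 1 in the MB mice and 0 in both BM mice. Gcdh did not pass the test between the crosses (limma adjusted p = 0.873). How many reads lie behind the frequencies of Aass and Gcdh is unknown, also where the FPKM is high, and was not tested. In carnitine and choline oxidation, 8 of 9 genes were listed, and neither of the 2 with a frequency was called. Bbox1, which completes carnitine synthesis, had the lower mean, 0.492, and Bhmt the highest mean FPKM, 1963. Sardh had the higher mean, 0.673, with values from 0.571 to 0.786 among the mice. In fatty aldehyde and sphingolipid breakdown, 6 of 8 genes were listed, and the 1 with a frequency, Phyh (0.334, from 0 to 0.667 among the mice), was not called, at a mean FPKM of 954. In expression, no gene of these lists other than Cyp2e1 passed the test between the crosses.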

How the data were processed

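The data were mRNA of the livers of 4 F1 mice, 2 per cross, grouped by the sample labels, which number the mice of a cross as replicates. Adapters were removed with Trim Galore!, reads were placed by Tophat2 on an mm10 genome whose SNP sites were masked, keeping at most 1 position per read, and the authors deposited FPKM per gene. For the fraction, the authors sorted reads by allele with SNPsplit and gave the B6 share of the Cuffdiff counts of both alleles. Tool versions are not given in the sources used here. No read counts were used, so no interval for a single frequency was computed.

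The log2 odds of each frequency were taken after setting limits of 0.01 and 0.99. In a single limma 3.58.1 model (R 4.3.3) over 3632 genes, the mean of the crosses was tested against 0 and the crosses against each other. Expression was tested with limma with a trend on log2(FPKM + 1) over 8797 genes (minimum mean FPKM 1). This scale understates changes of low genes. All tests were two-sided, and p-values were adjusted over all genes (Benjamini-Hochberg, threshold 0.05). The tests were tested on simulated data with known changes. Identical 150-base words and coding alignments used GENCODE M21 transcripts, and windows came from RefSeq. Tables were handled with Python 3.11.15 and pandas 2.3.3, and plots with matplotlib 3.10.9.

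The members and lists were chosen with earlier results of these data known. Named genes are all members, genes with a frequency within 200 kb of a member, and, of each pathway list, those called or past 0.8 or 0.2, those with the highest and lowest mean frequency and that with the highest mean FPKM. Other limits, scales, filters, pseudocounts, scalings and a replicate block were tried, and each mouse was left out in turn.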

Additional observations from a re-analysis of the deposited data

Results flagged for a closer look

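No member was flagged. Among the pathway genes, Aass, which starts lysine breakdown, was flagged because both MB mice lay above 0.5 and both BM mice below it. Its frequency was 0.8 and 1 in MB and 0.333 and 0 in BM, and the means of the crosses differed by 0.733. The test of this difference was not passed (limma adjusted p = 0.873). Aass lies in the part of its chromosome where nearly all genes lack a frequency.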

How the results depend on the processing

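Calls of allelic imbalance rest on 4 mice. The 1316 genes called fell to between 181 and 514 when a mouse was left out, and the members called fell from 5 to 3 each time (Adh4, Aldh9a1 and Aldh1a7 were called each time). The replicate numbers are not stated to mark a shared litter or batch. After the mean of its cross was subtracted from each value of a gene, what remained was correlated between same-numbered mice. It gave r = 0.147 for log2 odds and -0.00299 for log2(FPKM + 1). With a replicate block the genes called were 775, the members called were again 5, with Adh7 gained (limma adjusted p = 0.0375) and Aldh1a1 lost (0.105), and genes called for expression were 285. Genes that differed between the crosses in frequency numbered 3, with 1 at limits of 0.001 and 0.999 and 0 to 6 without a mouse. Without a mouse, an expression difference was called in 13 to 21 genes in place of 4, with 20 after scaling to equal sums and 0 without the genes listed at 0 in a mouse, a choice made after seeing the data. Equal sums moved the median expression difference of all genes from 0.02 to -0.10. No member was called for either difference between the crosses in any of these fits. Genes past 0.8 or 0.2 numbered 116, and 241 were past 0.7 or 0.3, with 2 members among them (Adh4 and Aldh1a7) in place of 0. Log2 odds of the 5 called members kept their direction in every alternative. How far the unknown depth limits each frequency was not tested.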
